A study of Homo sapiens with 6 samples.

Results

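The genes of cholesterol and fatty acid synthesis were examined in 2 HEK293 lines, one carrying a control vector and the other a vector that expresses myocilin. A list of 34 genes was taken: the enzymes of the sterol pathway, the enzymes of fatty acid synthesis, the proteins that control the SREBP transcription factors, and proteins of lipid uptake and transfer. Every probe set that the platform annotation gives to exactly 1 gene of the list was used. This gave 64 of the 41751 probe sets and 31 of the 18338 genes. The other 3 genes have no values here: the probe sets of CYP51A1 and FADS1 are annotated to several genes each, and FDFT1 was not analysed here.

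Cells make cholesterol from acetyl-CoA through mevalonate, farnesyl diphosphate, squalene and lanosterol, and make fatty acids from acetyl-CoA through malonyl-CoA and palmitate. The transcription factors SREBF1 and SREBF2 switch on most of these enzymes. They are held in the endoplasmic reticulum by SCAP and the INSIG proteins while sterols are plentiful, and SCAP escorts them to the Golgi for cleavage when sterols run low. Cells can also take up cholesterol in lipoproteins, through receptors of the LDL receptor family.

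HEK293 is a transformed line from human embryonic kidney. Both lines were stably transfected Tet-On lines, in which doxycycline induces the inserted gene, and both were kept in medium with serum approved for Tet systems, penicillin, streptomycin, hygromycin B and G418. Total RNA of each was measured on 3 HG-U133 Plus 2.0 arrays. The protocol gives doxycycline at 0.2 or 1 µg/ml for 48 h, without saying which array had which dose, and only the myocilin samples have a description that mentions the drug. Each vector is represented by a single line, so the vector cannot be told apart from other differences between the lines, and it is not stated whether a line is 1 clone. No label ties the arrays of a line to separate cultures. The p-values then reflect only how far these arrays spread, and that spread may be technical.

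All values are the deposited centred values, read as log2; no source gives the base, which was taken from their range. A value says how far an array lies from an unstated reference for that probe set, so it shows differences between arrays and not levels, and neither levels of different genes nor detection can be judged. For the same reason the markers of HEK293 could not be checked for presence. MYOC, the inserted gene, read -6.71, -8.32 and -8.29 in control and 0.21, 0.20 and 0.24 in myocilin, as the labels imply. Correlations over probe sets were 0.409 to 0.608 between arrays of a line and -0.244 to -0.00516 between the lines. A gene's value is the mean of its probe sets. A gene or probe set was called changed at a Benjamini-Hochberg adjusted p under 0.05 in limma, over all genes or all probe sets, and every difference is myocilin minus control.

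Of the 31 measured genes, 8 fell in the myocilin line, 1 rose and 22 did not pass the threshold. The 8 that fell are 25.8% of the list, and 7.35% of all genes fell. The 1 that rose is 3.23%, and 8.28% of all genes rose. The genes that fell were FDPS, TM7SF2 and SC5D of the sterol pathway, the desaturase gene SCD, INSIG1 and INSIG2, and the uptake and transfer genes VLDLR and STARD4. Their falls ran from -0.25 to -0.67, which is 1.19-fold to 1.60-fold. The gene that rose was MID1IP1, by 1.59 or 3.01-fold. The median difference was -0.11 over the 31 genes and 0.02 over all genes. The list was chosen with earlier results of these data known. The shares and medians given here and below therefore describe the list and do not test it. In RNA from whole cultures, fewer cells that express a gene and less RNA of it per cell cannot be told apart.

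Counting only whether the arrays of the lines overlapped, 16 of the 31 genes were lower on every myocilin array than on every control array (51.6%, against 16.0% of all genes), and 3 were higher on every one (9.68%, against 18.9%). In either direction, arrays did not overlap in 34.9% of all genes. Of the 16, 8 passed the threshold. By probe sets, 9 of 64 fell (14.1%, against 5.56% of all probe sets) and 2 rose (3.12%, against 5.46%). The count of genes that fell was 5 without myocilin array 1 and 5 without myocilin array 3, and it was 4 with moderation of the variances left out. Those 4 include ACLY, which is not among the 8.

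**Figure D1:**
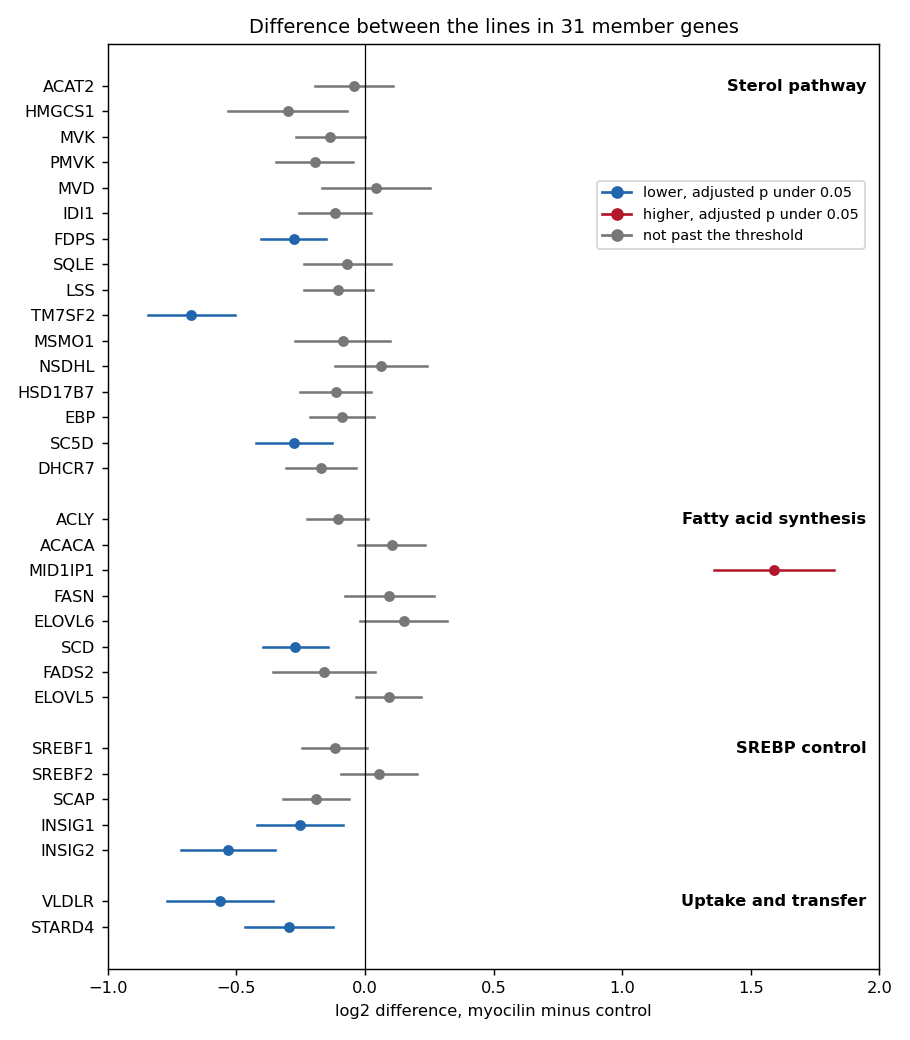
Log2 difference (myocilin minus control, horizontal axis) of the 31 measured genes, by class and, within the sterol pathway, in the order of the steps. Points are limma estimates over 3 arrays per line and bars are 95% confidence intervals; blue marks the 8 genes that fell, red the gene that rose (MID1IP1, 1.59) and grey the 22 that did not pass the threshold.

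The 16 measured genes of the sterol pathway leaned to lower values in the myocilin line. Of them, 3 fell, 0 rose and 13 did not pass, 14 had a negative difference, and the median was -0.11. Over all genes, 7.35% fell and 8.28% rose. The mean over the 16 genes read 0.08, 0.04 and 0.16 in control and -0.12, -0.01 and -0.06 in myocilin, without overlap. Negative differences made up 87.5% of the pathway and 44.7% of all genes. The 13 genes that did not pass ran from -0.30 to 0.06, and 11 of them were negative.

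The pathway opens with the mevalonate segment. ACAT2, the thiolase that joins acetyl-CoA units, differed by -0.04 (95% confidence interval -0.20 to 0.11). HMGCS1, the HMG-CoA synthase, read 0.10, 0.08 and 0.31 in control and -0.31, 0.07 and -0.18 in myocilin. These means of 2 probe sets did not overlap, but the arrays of each probe set alone did (differences -0.41 and -0.19). The second myocilin array lay just under the lowest control array, and the gene's difference of -0.30 ± 0.10 (SE) did not pass (adjusted p = 0.0782). Without myocilin array 2 it was -0.41 and passed (adjusted p = 0.026).

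The mevalonate kinase gene MVK read -0.13 (interval -0.27 to 0.002) and the phosphomevalonate kinase gene PMVK -0.20 (interval -0.34 to -0.05, adjusted p = 0.0781). Both had arrays that did not overlap. MVD, the decarboxylase gene, read 0.04, with myocilin array 3 at 0.32 and the other myocilin arrays at -0.04 and -0.01. IDI1, the isomerase that makes dimethylallyl diphosphate, read -0.11 as a mean of 3 probe sets. These disagreed: 2 of them read -0.27 and -0.21, the first past the threshold (adjusted p = 0.0335), and the third read 0.13.

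FDPS encodes the synthase of farnesyl diphosphate, from which sterols and the lipid anchors of prenylated proteins are made. Its only probe set read 0.26, 0.19 and 0.29 in control and -0.03, 0.00 and -0.06 in myocilin. The lowest control array lay above the highest myocilin array. The means were 0.25 ± 0.05 and -0.03 ± 0.03 (SD, n = 3 each), and FDPS fell by 0.28 ± 0.06 (SE, limma adjusted p = 0.0111). It passed under all 15 alternative settings tried, at -0.31 to -0.26.

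In the squalene segment nothing passed. SQLE, the epoxidase that opens the oxygen-dependent part of the pathway, differed by -0.07 (interval -0.24 to 0.10), and its 4 probe sets ran from -0.15 to -0.001. LSS, the lanosterol synthase, differed by -0.10 (interval -0.24 to 0.03), with 3 probe sets at -0.31, -0.18 and 0.18.

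The steps after lanosterol held the largest fall of the whole list. TM7SF2 encodes a sterol reductase that acts just after CYP51A1. Its only probe set read -0.01, 0.00 and 0.13 in control and -0.77, -0.53 and -0.61 in myocilin. Every myocilin array lay below every control array. The means were 0.04 ± 0.08 and -0.64 ± 0.12 (SD, n = 3 each). TM7SF2 fell by 0.67 ± 0.07 (SE, 1.60-fold, limma adjusted p = 0.000646), and 0.48% of all genes had a lower difference.

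SC5D, a desaturase of the last steps of the pathway, read 0.14, 0.19 and 0.12 in control and -0.21, -0.02 and -0.15 in myocilin. The arrays did not overlap, with myocilin array 2 nearest to the controls. SC5D fell by 0.27 ± 0.07 (SE, adjusted p = 0.0223). Its 2 probe sets read -0.28 and -0.27, each short of the threshold alone (adjusted p = 0.0607 and 0.0867), and the gene missed it without control array 2 (-0.25, adjusted p = 0.0689), without myocilin array 1 (-0.23, adjusted p = 0.088) and without myocilin array 3 (-0.26, adjusted p = 0.0636).

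The other enzymes after lanosterol did not pass. DHCR7, which catalyses the last reduction to cholesterol, read -0.17 (interval -0.31 to -0.03, adjusted p = 0.0891) on arrays that did not overlap. The methyl oxidase gene MSMO1 read -0.09, the ketosteroid reductase gene HSD17B7 -0.11 and the isomerase gene EBP -0.09. NSDHL, a dehydrogenase of the demethylation steps, read 0.06, with the control arrays spread from -0.27 to 0.04.

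**Figure D2:**
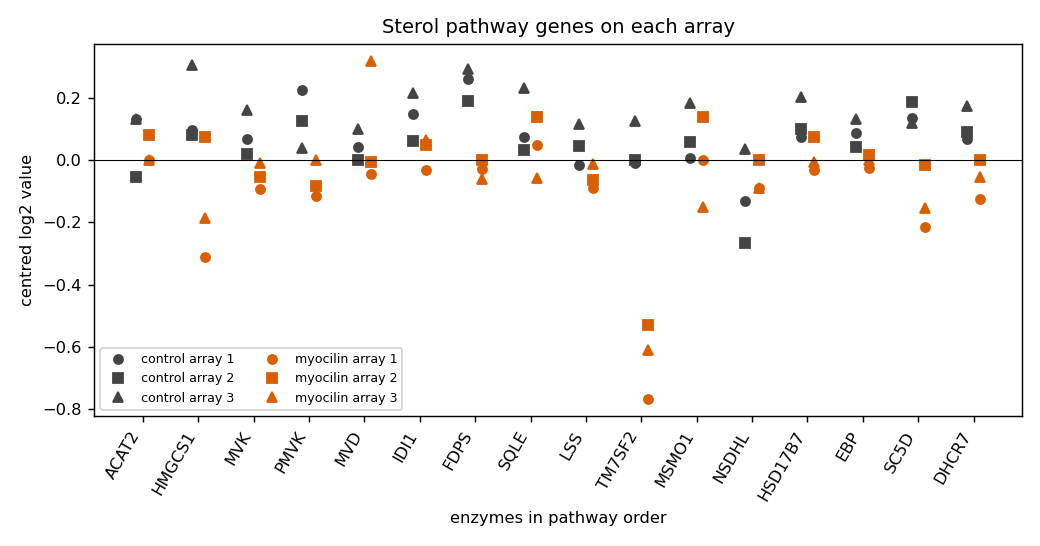
Centred log2 value (vertical axis) of the 16 measured sterol pathway genes on each of the 6 arrays, in pathway order from left to right; grey marks are control arrays and orange marks myocilin arrays, with the array number as the shape. TM7SF2 stands apart at -0.77 to -0.53 on the myocilin arrays, control array 3 is the highest control in 13 genes and myocilin array 2 the highest myocilin array in 11.

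Within each line the sterol genes also moved as a group from array to array. Control array 3 gave the highest control value in 13 of the 16 genes, while it was the highest control array in 33.4% of all genes. Myocilin array 2 gave the highest myocilin value in 11 of the 16, against 30.3% of all genes, and myocilin array 1 the lowest in 12, against 30.7%. Arrays of a line thus differed in these genes in a shared direction, and the genes are not independent readings of the difference between lines.

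The genes of fatty acid synthesis went both ways. Of 8 measured, 1 rose, 1 fell and 6 did not pass, and the median was 0.09. Over all genes, 8.28% rose and 7.35% fell, so 1 of 8 each way does not set the class apart. ACLY, which cleaves citrate to cytosolic acetyl-CoA, read 0.18, 0.18 and 0.20 in control and 0.10, 0.08 and 0.06 in myocilin. These arrays were tight and did not overlap, and the difference of -0.11 ± 0.05 (SE) did not pass (adjusted p = 0.211). ACLY passed only with moderation of the variances left out (adjusted p = 0.0411). ACACA, the carboxylase that makes malonyl-CoA, read 0.11 (interval -0.03 to 0.24), with 1 probe set past the threshold at 0.28 (adjusted p = 0.0326) and the other at -0.07. FASN, the synthase that builds palmitate, read 0.10 (interval -0.08 to 0.27), and its myocilin arrays were at -0.01, 0.25 and 0.01.

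MID1IP1 encodes a small protein that promotes the assembly of acetyl-CoA carboxylase into active filaments. Its only probe set read -2.80, -2.99 and -3.26 in control and -1.38, -1.47 and -1.42 in myocilin. All 6 arrays lay far below the reference, and the myocilin arrays were the nearer to it. The means were -3.01 ± 0.23 and -1.42 ± 0.05 (SD, n = 3 each). MID1IP1 rose by 1.59 ± 0.10 (SE, limma adjusted p = 3.23e-05), and 9 of all genes had a larger rise. Quantile normalization reduced the difference to 0.98, still past the threshold (adjusted p = 1.79e-05). The difference between MID1IP1 and ACACA, the enzyme its product acts on, went from -3.07 ± 0.27 in control to -1.59 ± 0.05 in myocilin (SD, n = 3 each), with a two-sided exact permutation p = 0.1. That is the smallest p that 3 arrays against 3 allow, and it was 0.133 adjusted over the 4 pairs that could be compared. ACACA differed by only 0.11, so the shift of 1.48 mostly repeats the rise of MID1IP1 and adds nothing on ACACA. Each gene has its own unstated reference, so the values of the pair do not give a balance between the genes.

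SCD, the desaturase that turns stearate into oleate, read 0.06, 0.15 and 0.06 in control and -0.17, -0.21 and -0.16 in myocilin. All myocilin arrays were below all control arrays. SCD fell by 0.27 ± 0.06 (SE, adjusted p = 0.0117). Its 4 probe sets were all negative, 2 of them past the threshold at -0.42 and -0.37 and the others at -0.18 and -0.12. With a single probe set per gene, taken in order of ID, SCD read -0.18 and did not pass (adjusted p = 0.168).

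Among the listed genes of elongation and polyunsaturated fatty acid synthesis, none was called. The elongase gene ELOVL6 read 0.15 (interval -0.02 to 0.32) and ELOVL5, which elongates polyunsaturated chains, 0.09 (interval -0.03 to 0.22). The difference between these elongase genes shifted by -0.06 between the lines (exact permutation p = 0.5). FADS2, the desaturase that opens polyunsaturated synthesis, read -0.16, with probe sets at -0.34, past the threshold (adjusted p = 0.0306), and at 0.03. Its myocilin arrays were at -0.13, -0.40 and -0.06, and without myocilin array 2 the gene read -0.06 (adjusted p = 0.644).

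**Figure D3:**
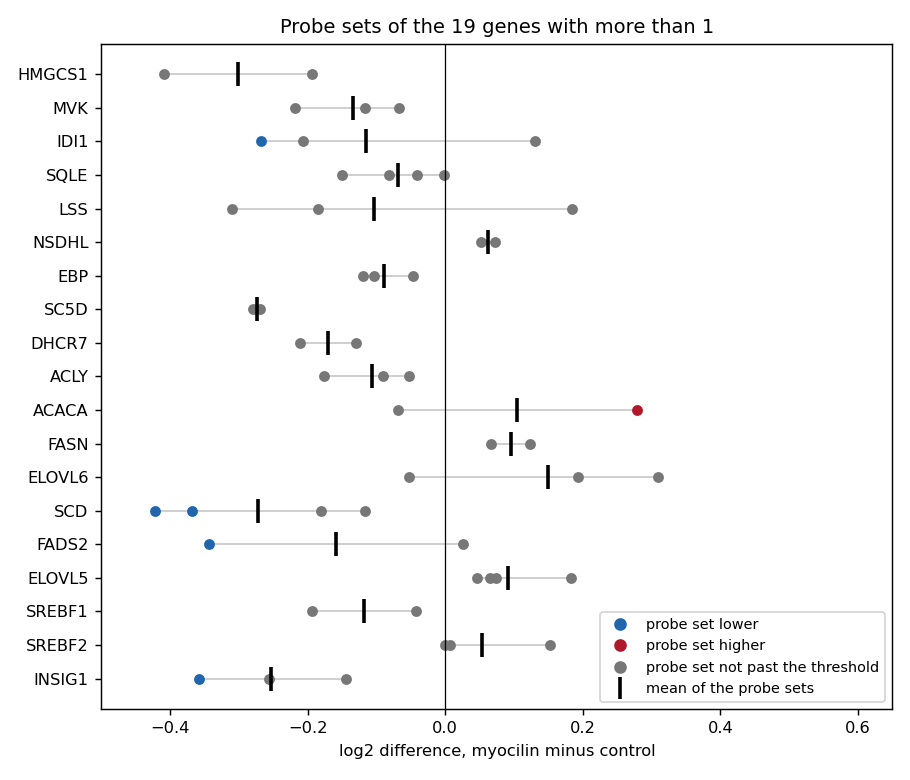
Log2 difference (myocilin minus control, horizontal axis) of each probe set, for the 19 genes with more than 1; blue probe sets fell, red rose and grey did not pass in the fit over all probe sets, and black bars mark the mean that stands for the gene. Probe sets of IDI1, LSS, ACACA, ELOVL6 and FADS2 lie on both sides of 0, and those of SCD and SC5D on 1 side.

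Among the genes of SREBP control, both INSIG genes fell and the transcription factors did not pass. That is 2 falls among 5 measured genes, and 7.35% of all genes fell. SREBF1, which mainly drives fatty acid genes, read -0.12 (interval -0.24 to 0.01), and SREBF2, which mainly drives sterol genes, 0.05 (interval -0.09 to 0.20). SREBF1 minus SREBF2 went from 0.03 ± 0.08 to -0.14 ± 0.09 (SD, n = 3 each, exact permutation p = 0.1, adjusted p = 0.133). The lines were barely apart, with myocilin array 2 at -0.031 and control array 2 at -0.021. With the median of the probe sets the shift was -0.10 (exact permutation p = 0.3). Without _x_at and _s_at probe sets it was -0.19 (exact permutation p = 0.1). SCAP, the escort protein, read 0.01, 0.12 and 0.03 in control and -0.12, -0.18 and -0.12 in myocilin. The arrays did not overlap, and the difference of -0.19 ± 0.06 (SE) fell just short of the threshold (adjusted p = 0.0522). SCAP passed under quantile normalization (-0.20, adjusted p = 0.045), with trended and robust moderation (-0.19, adjusted p = 0.049) and with array weights (-0.19, adjusted p = 0.0461).

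INSIG2 and INSIG1 encode paralogous retention proteins, of which INSIG1 is itself a classical SREBP target. INSIG2 read 0.00, 0.24 and 0.27 in control and -0.36, -0.28 and -0.45 in myocilin. Every myocilin array was below every control array. INSIG2 fell by 0.53 ± 0.08 (SE, 1.45-fold, limma adjusted p = 0.0031). INSIG1 read 0.39, 0.26 and 0.52 in control and 0.16, 0.18 and 0.07 in myocilin. It fell by 0.25 ± 0.07 (SE, adjusted p = 0.0478), with 1 of 3 probe sets past the threshold, at -0.36, and the others at -0.26 and -0.14.

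The call of INSIG1 lay at the threshold and was lost in 12 of the 15 alternatives. It was lost without control array 1 (-0.25, adjusted p = 0.0974), without control array 3 (-0.19, adjusted p = 0.138), and without myocilin array 1 (-0.26, adjusted p = 0.109), 2 (-0.28, adjusted p = 0.0819) or 3 (-0.22, adjusted p = 0.134). It was also lost under quantile normalization (-0.28, adjusted p = 0.0539) and with trended and robust moderation (-0.25, adjusted p = 0.069), where SCAP passed. INSIG2 minus INSIG1 was -0.22 ± 0.19 in control and -0.50 ± 0.03 in myocilin (SD, n = 3 each), with all myocilin arrays below all control arrays (exact permutation p = 0.1, adjusted p = 0.133). With 3 arrays against 3, no smaller p than 0.1 was possible.

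Both listed genes of uptake and transfer fell, where 7.35% of all genes fell. Among 10 measured genes of lipoprotein uptake and sterol handling outside the list, 2 fell, 1 rose and 7 did not pass. Those that fell were NPC1, by 0.32, and NPC2, by 0.27. The gene that rose was LRP8, by 0.34 ± 0.08 (SE, limma adjusted p = 0.0245). VLDLR encodes a receptor of the LDL receptor family that binds lipoproteins rich in apolipoprotein E, and reelin. It read 0.18, 0.39 and 0.00 in control and -0.37, -0.41 and -0.33 in myocilin. The control arrays were spread widely, and all of them lay above the myocilin arrays. VLDLR fell by 0.56 ± 0.09 (SE, 1.48-fold, limma adjusted p = 0.00406). STARD4, which carries cholesterol between membranes in the cytosol, read 0.00, 0.22 and 0.07 in control and -0.15, -0.14 and -0.31 in myocilin.

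STARD4 fell by 0.29 ± 0.08 (SE, adjusted p = 0.0305) over genes. Its only probe set, with the same values, did not pass over all probe sets (adjusted p = 0.0552), and the gene was not called without control array 2 (-0.23, adjusted p = 0.0918) or 3 (-0.31, adjusted p = 0.0648), or without myocilin array 1 (-0.32, adjusted p = 0.0634), 2 (-0.33, adjusted p = 0.0524) or 3 (-0.24, adjusted p = 0.0903).

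**Figure D4:**
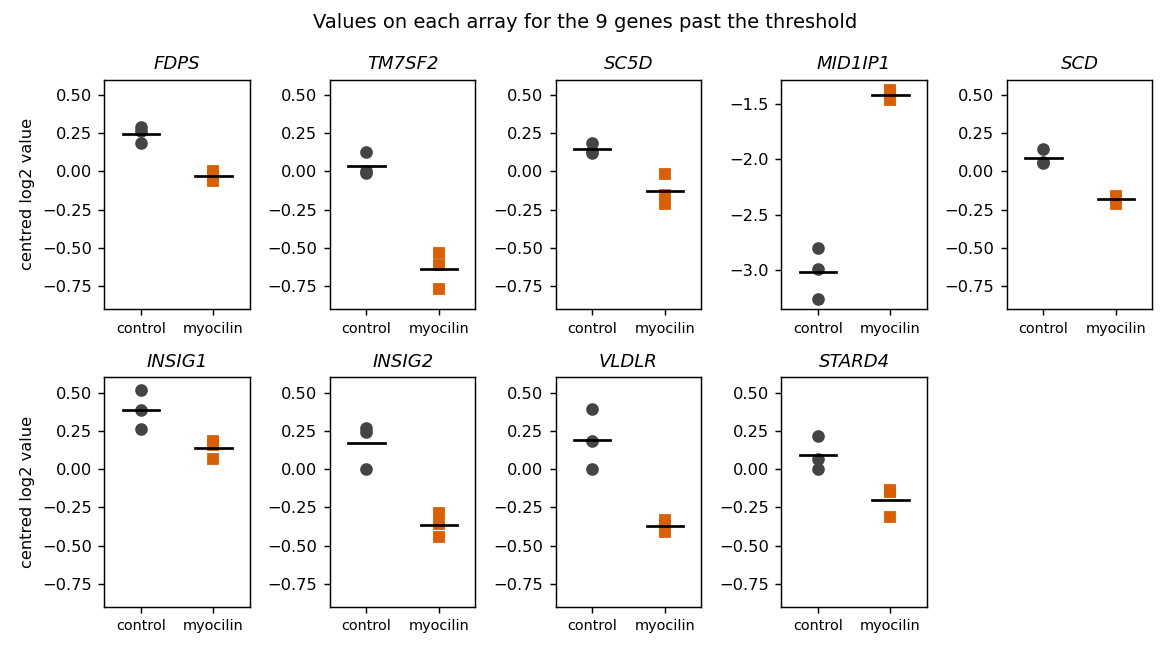
Centred log2 value (vertical axis) of the 9 genes past the threshold on each array, control as grey circles and myocilin as orange squares, with the group mean as a black line (n = 3 arrays each). MID1IP1 has its own axis, with all arrays between -3.26 and -1.38; in the other 8 panels, which share an axis, every myocilin array lies below every control array.

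Some chromosomes differed as a whole between the lines, with a median of 0.14 on chromosome 16 and -0.21 on chromosome 18. No listed gene that was measured lies on chromosome 18. The 50 genes nearest to each of the 8 that fell had median differences of -0.05 to 0.11. With those neighbours subtracted, 6 of the 8 still fell, among them SCD at -0.38, TM7SF2 at -0.71, VLDLR at -0.58 and INSIG2 at -0.54. INSIG1 at -0.27 (adjusted p = 0.0566) and STARD4 at -0.24 (adjusted p = 0.0552) did not pass there.

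Promoter windows, 250 bases before to 50 after the start, were held by RefSeq (GRCh38.p14) for 28 of the 31 measured genes and for all 8 that fell. They were searched on both strands for TCACNCCAC, a form of the sterol regulatory element, for CCAAT, the box bound by NF-Y, for GGGCGG, the box bound by SP1, and for CACGTG, the palindromic E-box. The motifs were searched separately, and a match of one may overlap a match of another. TCACNCCAC was found in 2 of the 28 windows, those of MID1IP1 and SREBF2, and in 1.08% of the windows of the 14400 tested genes with one. CCAAT was found in 19 of 28 (67.9%, against 36.1%), GGGCGG in 25 (89.3%, against 60.7%) and CACGTG in 5 (17.9%, against 9.12%). Among the 8 genes that fell, 6 held CCAAT, 8 held GGGCGG and 0 held TCACNCCAC in these letters.

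The 250 bases before the start are shown for the gene that rose, for 2 sterol enzymes that fell and for the paired INSIG genes, 5′ to 3′ on the gene's strand. Capitals mark TCACNCCAC and CCAAT or their reverse complements. MID1IP1 (chrX:38801209-38801458, plus strand) holds both, the first at -40 to -32, and 1 GGGCGG. TM7SF2 (chr11:65111622-65111871, plus strand) holds 1 CCAAT and 4 GGGCGG, and FDPS (chr1:155308616-155308865, plus strand) 3 CCAAT and 1 GGGCGG. INSIG1 (chr7:155297628-155297877, plus strand) holds 1 CCAAT, 6 GGGCGG, of which 1 lies after the start and is not shown, and 1 CACGTG. INSIG2 (chr2:118088221-118088470, plus strand) holds 1 GGGCGG and none of the others. A match describes the letters and not a bound site.
MID1IP1: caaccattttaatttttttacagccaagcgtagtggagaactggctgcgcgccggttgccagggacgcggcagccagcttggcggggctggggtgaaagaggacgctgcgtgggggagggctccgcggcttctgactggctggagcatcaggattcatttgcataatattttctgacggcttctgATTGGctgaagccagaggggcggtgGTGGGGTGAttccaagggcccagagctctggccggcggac
TM7SF2: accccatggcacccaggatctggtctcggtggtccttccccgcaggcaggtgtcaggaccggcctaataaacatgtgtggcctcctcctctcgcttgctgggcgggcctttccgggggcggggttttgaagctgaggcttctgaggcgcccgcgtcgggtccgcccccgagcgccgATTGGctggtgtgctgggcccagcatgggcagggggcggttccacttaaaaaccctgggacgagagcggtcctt
FDPS: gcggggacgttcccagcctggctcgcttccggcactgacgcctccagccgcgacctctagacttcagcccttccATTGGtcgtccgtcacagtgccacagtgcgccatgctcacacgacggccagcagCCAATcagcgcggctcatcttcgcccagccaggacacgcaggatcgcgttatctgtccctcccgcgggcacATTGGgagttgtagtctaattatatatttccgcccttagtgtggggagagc
INSIG1: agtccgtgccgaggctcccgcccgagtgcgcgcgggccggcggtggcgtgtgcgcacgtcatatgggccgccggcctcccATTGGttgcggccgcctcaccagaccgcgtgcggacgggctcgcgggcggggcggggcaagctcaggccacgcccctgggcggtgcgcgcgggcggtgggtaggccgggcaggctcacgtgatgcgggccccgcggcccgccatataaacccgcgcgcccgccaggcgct
INSIG2: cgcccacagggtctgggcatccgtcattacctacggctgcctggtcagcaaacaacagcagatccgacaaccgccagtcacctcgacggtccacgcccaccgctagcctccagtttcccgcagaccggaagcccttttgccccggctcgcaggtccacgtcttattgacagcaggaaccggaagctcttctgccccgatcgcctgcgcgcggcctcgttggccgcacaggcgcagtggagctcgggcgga

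A further 79 genes of lipid synthesis, uptake and SREBP control that are not in the list were set beside it. Of 66 measured, 4 fell, 7 rose and 55 did not pass, with a median of 0.03. These 11 calls among 66 are close to the 15.6% of all genes that passed in either direction. Among them, 0 of 8 genes of the SREBP machinery and 0 of 7 genes of oxysterol sensing, efflux and esterification passed. Glycerolipid assembly had 3 rises and 1 fall among 10, with a median of 0.15, where 8.28% of all genes rose. Lipoprotein uptake and sterol handling had 2 falls and 1 rise among 10. Other fatty acid genes had 2 rises among 17, and sterol and isoprenoid genes 1 rise among 8. Acetyl-CoA and NADPH supply had 1 fall among 6. Differences between these groups were not tested.

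Of the genes outside the list, the 6 with the smallest p were HACD4, LPIN2, NPC1, PDSS2, AGPAT2 and GPAM. HACD4, a dehydratase of very long chain fatty acid elongation, rose by 0.56 ± 0.07 (SE, adjusted p = 0.000919). PDSS2, which builds the isoprenoid tail of coenzyme Q, rose by 0.39. AGPAT2 and GPAM, acyltransferases of the early steps of glycerolipid synthesis, rose by 0.30 and 0.28. NPC1, which exports cholesterol from lysosomes, read 0.14, 0.19 and 0.14 in control and -0.16, -0.14 and -0.17 in myocilin and fell by 0.32 ± 0.05 (SE, adjusted p = 0.00454). LPIN2, a phosphatidate phosphatase, fell by 0.69 ± 0.08 (SE, adjusted p = 0.000972). NPC1 and LPIN2 lie on chromosome 18, and their 50 nearest neighbours had medians of -0.17 and -0.26. The neighbours of the genes that rose had medians of 0.20 for AGPAT2, 0.12 for GPAM, 0.11 for PDSS2 and 0.01 for HACD4.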

How the data were processed

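The deposited table holds centred log2 values for 6 arrays; how the authors corrected, summarised and scaled them is not given in the sources used here. Per the labels' source names, 3 arrays are control and 3 myocilin. Every array has a median of 0, and arrays are the limit to precision. Of 41751 probe sets, 37460 were listed with 1 gene, and current symbols came from RefSeq by Entrez identifier for 37416 of them. Genes and probe sets were fitted with limma 3.58.1 (lmFit, eBayes, two-sided) in R 4.3.3. Genes were named by rule: all members, and the 6 genes of the second list with the smallest p past the threshold. LRP8 and NPC2, also of the second list, were named after their values were seen. The members and lists were chosen with earlier results of these data known. Simulated data for this comparison (18338 genes) were used to test the gene fit, which recovered 26.9% of 67 genes changed by 0.3, 76.1% of 67 changed by 0.5 and 95.5% of 66 changed by 1, with 8 false calls among 140. The simulation changed a smaller share of genes than the 15.6% called in the data. The adjusted p depends on that share, so the recovery may differ here. The FADS1 and FADS2 pair could not be compared. In all, 15 alternatives were tried: scaling, variance models, probe set choices, neighbours subtracted and each array left out.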

Additional observations from a re-analysis of the deposited data

How the results depend on the processing

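FDPS and MID1IP1 were called under all 15 alternatives and TM7SF2 under the 14 that measured it; INSIG2 was lost only without moderation (adjusted p = 0.0633), as was VLDLR (adjusted p = 0.0764). Calls of INSIG1, SC5D, STARD4 and SCD depended on the setting. Without moderation, 1157 of all genes were called (2866 otherwise) and 4 listed genes fell. These were FDPS, TM7SF2 and SCD, called in the main fit, and ACLY, which was not (adjusted p = 0.0411 without moderation). In that setting 6 genes of the second list and 1365 of all probe sets (4603 otherwise) passed, and 3 listed probe sets fell and 1 rose. Leaving out _x_at and _s_at probe sets kept 20 of the 31 genes; 1878 of all genes and 7 of the second list were called, 3 listed genes fell and their median was -0.075. The same 20 genes had a median of -0.11 and 5 falls with all their probe sets. With 1 probe set per gene 4 listed genes fell and 2 rose, and 5 of the second list passed (11 otherwise). With neighbours subtracted the median was -0.16 and 5 of the second list passed. ELOVL5 minus ELOVL6 turned to 0.028 without _x_at and _s_at probe sets; this and the other changes have no cause that was tested. Leaving out each array gave 1613 to 2220 called genes, 2281 to 3283 called probe sets, 5 to 7 listed genes that fell, 4 to 7 listed probe sets that fell and 1 to 2 that rose, and 5 to 7 of the second list. No paired analysis was done because no label pairs arrays of the lines. The title numbers, 1 to 3 and 7 to 9, do not say whether any were handled in pairs.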

Other observations

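MID1IP1 was 1 of 2 genes in the table with all 6 arrays below -1 on the centred scale; the other, SHROOM2, named after its values were seen, read -1.52, -1.39 and -1.36 in control and -1.42, -1.59 and -1.54 in myocilin, with no call (difference -0.10, limma adjusted p = 0.394). No gene had all 6 arrays above 1. The other 30 listed genes that were measured stayed between -0.77 and 0.52 on every array.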
